A study of Mus musculus with 16 samples.

Results

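The contrast described here asked how the difference between 2 progenitor populations of the same bone marrow depended on the Ebf1 genotype. For each gene it is the MPP3 minus MPP4 difference in mice labelled KO less that difference in mice labelled WT, with both populations of a mouse paired. All 16 libraries of the series entered it, 8 of MPP3 and 8 of MPP4, taken as 4 mice labelled WT and 4 labelled KO. The labels do not name the animal, and MPP3 and MPP4 libraries were read as 1 mouse because they share a replicate number, sex and age and deviate together. Without this pairing edgeR called no gene for the interaction, and 270 had an unadjusted p under 0.05. A gene's difference is called narrowed where it was smaller in KO with the same direction, widened where it was larger with the same direction, and crossed where the direction turned.

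Poly(A) RNA was sequenced from cells sorted from C57BL/6 bone marrow after magnetic depletion of cells bearing CD3, B220, CD11b, Gr1 or Ter119. Both populations were LSK (lineage-negative, Sca1+, cKit+), CD150- and CD48+. MPP4 cells were in addition Flt3+, while the labelled MPP3 gate gives no Flt3. Per the labels, WT mice were Ebf1fl/fl Tie2Cre+/+, read here as floxed alleles without Cre, and KO mice were Ebf1fl/fl Tie2Cre +/cre, so both groups carried the floxed alleles. The series description instead gives Tie2Cre to both groups and wild-type Ebf1 to the controls, and alleles and transgene therefore cannot be told apart as the difference between the groups. Tie2Cre expresses Cre from the promoter of Tek, which is active in endothelial cells and haematopoietic stem cells, so recombination is not limited to the sorted populations. The WT mice were 12, 11, 12 and 11 weeks old (replicates 1 and 2 female, 3 and 4 male), and the KO mice 10, 9, 11 and 11 weeks old (replicates 1 and 2 male, 3 and 4 female).

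MPP3 and MPP4 are short-lived multipotent progenitors downstream of the haematopoietic stem cell. MPP3 cells are biased toward myeloid fates and express granule protein genes such as Mpo and Elane, whereas MPP4 cells are primed for lymphoid fates and express Flt3 and Dntt. EBF1 is a transcription factor that specifies the B cell lineage, acting with E proteins, PAX5 and FOXO1.

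The libraries held 24823708 to 48703193 counts, and MPP3 to MPP4 total count ratios lay between 0.787 and 0.923 in the WT mice and between 0.802 and 1.40 in the KO mice. Flt3, the receptor that defines MPP4, was 4.38-fold higher in MPP4 of WT and 4.12-fold higher in MPP4 of KO, and Slamf1 (CD150) stayed at or below a mean of 2.30 CPM in every group. The targeted gene went against the genotype labels in MPP4. Ebf1 (ENSMUSG00000057098, GRCm38 chromosome 11, 44617317 to 45008091) was at 4.41, 3.32, 4.11 and 6.19 CPM in the MPP4 libraries labelled WT and at 23.6, 24.9, 18.1 and 17.6 CPM in those labelled KO. CPM here is the read count scaled to a common, normalised library size. Each of the 4 KO values exceeded each WT value, a gene count cannot show whether a transcript is recombined, and every direction below rests on the labels.

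Among genes called between the populations, the direction of the MPP3 to MPP4 difference was mostly the same in both genotypes. Of 11831 genes tested, edgeR (FDR under 0.1, the rule for a called gene throughout) called 2930 genes between the populations in WT (24.8%), 3346 in KO (28.3%) and 4630 for the difference averaged over the genotypes (39.1%). Both genotypes shared 2083 called genes, 71.1% of those in WT and 62.3% of those in KO, and 2 of these 2083 had opposite directions, Abcd2 and mt-Rnr2. Another 2110 genes were called in 1 genotype, but only 1 of them was called when the difference between the genotypes was tested itself, and 1862 of them (88.2%) had the same direction in both. Across the tested genes the WT and KO differences had a Pearson r of 0.748, which is a description across genes that share their libraries.

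**Figure D1:**
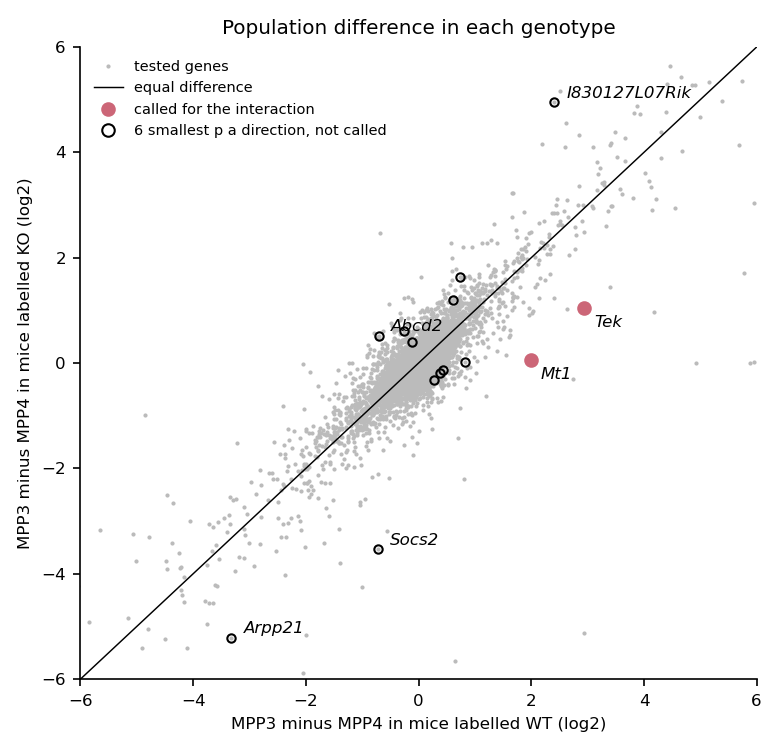
MPP3 minus MPP4 difference (log2) of each tested gene in mice labelled WT (horizontal axis) and labelled KO (vertical axis), with the line of equal differences. Most genes lie along the line, the 2 called genes Mt1 and Tek lie below it to the right, open circles mark the 12 uncalled genes with the smallest p among those whose mice did not overlap, and 44 genes beyond 6 on either axis are not drawn.

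The interaction itself called 2 genes (0.0169% of those tested), Mt1 and Tek, and both differences narrowed in KO. The unadjusted p was under 0.05 for 696 genes (5.88%), of which 388 had a value above 0 (3.28%) and 308 below 0 (2.6%), where 5% of the tests would give 592 genes with no effect anywhere. The third smallest FDR was 0.185. The interaction value was under 0.5 in size, on the log2 scale, for 11039 genes (93.3%), and the 95% confidence interval lay within 1 of 0 for 10067 genes (85.1%). The per-mouse differences of the 4 WT and 4 KO mice did not overlap for 433 genes on the log2 scale (3.66%), 228 of them with KO above WT, and for 458 genes in CPM (3.87%).

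Whether the whole programme was compressed or expanded in KO was read from 1 slope per mouse, the regression of its differences over all tested genes on the mean difference. The slopes were 0.9975, 0.9613, 0.980 and 1.004 in the WT mice and 0.9906, 1.012, 1.049 and 1.005 in the KO mice. The ranges overlapped, and the means differed by 0.0284 (2-sided exact permutation test over 8 mice, p = 0.114, where 0.0286 is the smallest p possible). With immunoglobulin genes left out the difference was 0.0483 and reached that smallest p. The regressor is the average of both genotype means, so leaving out a mouse gives each remaining mouse of its genotype more weight in it. The difference was larger with any 1 KO mouse left out (0.0381 to 0.0495) and smaller with any 1 WT mouse left out (0.000862 to 0.0141), which is therefore not read as a property of single mice. The SD of the differences over genes was 0.606 ± 0.0118 (SD, n = 4) in WT and 0.605 ± 0.00919 in KO (exact permutation p = 0.971).

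Among the 4630 genes called for the averaged difference, 1984 narrowed, 2618 widened and 28 crossed. Of the genes higher in MPP3, 1407 widened and 814 narrowed (median change along the direction of the difference, 0.05 on the log2 scale). Genes higher in MPP4 split nearly evenly, 1211 widened and 1170 narrowed (median 0.00). The split moved with how genes were chosen, since of 2930 genes called in WT 1640 narrowed and 1166 widened, and of 3346 called in KO 916 narrowed and 2302 widened.

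Mt1 encodes metallothionein 1, a small cysteine-rich protein that binds zinc and copper and is induced by metals and glucocorticoids. It had the smallest interaction p of all tested genes, and its MPP3 excess in WT was not found in KO. Mt1 (ENSMUSG00000031765, chromosome 8, 94179082 to 94180327) was at 25.7, 23.6, 9.34 and 18.7 CPM in MPP3 and 5.22, 4.16, 3.59 and 5.50 CPM in MPP4 of the 4 WT mice. In the KO mice it was at 143, 162, 108 and 142 CPM in MPP3 and 144, 178, 92.5 and 128 CPM in MPP4. MPP3 thus exceeded MPP4 in 4 of 4 WT mice and in 2 of 4 KO mice, and either population had more Mt1 in any KO mouse than in any WT mouse. The difference was 1.99 ± 0.15 (log2 ± SE) in WT, a 3.96-fold excess in MPP3, and 0.05 ± 0.12 in KO. The interaction was -1.93 ± 0.19 (95% confidence interval -2.35 to -1.52, edgeR FDR 0.00158). The call was lost with limma-voom and mouse as a random effect (-1.90, FDR 0.408) and without the pairing (-2.03, FDR 0.383).

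The Mt1 result held for the ratio of the populations and not for the difference in CPM. In CPM the MPP3 minus MPP4 difference was 20.5, 19.5, 5.75 and 13.2 in the WT mice and -1.37, -16.8, 15.3 and 14.3 in the KO mice, so the genotypes overlapped (means 14.7 ± 6.79 and 2.87 ± 15.2 CPM, SD, n = 4, exact permutation p = 0.229). Mt2, the paralog beside it (named here after a look at its values), reached at most 0.708 CPM in any library and was not tested. The other 9 tested genes of the metallothionein and zinc list, which hold the metal sensor Mtf1 and zinc transporters, included none called. The zinc importer Slc39a6, with the second smallest p of that list, had an interaction of 0.24 ± 0.11 (edgeR FDR 0.821).

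Tek encodes Tie2, the angiopoietin receptor of endothelial and stem cells, and its promoter drives Cre in the transgene. Its MPP3 excess was smaller in KO. Tek (ENSMUSG00000006386, chromosome 4, 94739289 to 94874976) was at 31.0, 33.0, 18.7 and 16.6 CPM in MPP3 and 5, 5.28, 2.08 and 1.62 CPM in MPP4 of the WT mice. In the KO mice it was at 24.5, 20.8, 28.5 and 32.2 CPM in MPP3 and 14.1, 13.9, 9.45 and 14 CPM in MPP4. The MPP3 ranges overlapped between the genotypes, while in MPP4 each KO mouse exceeded each WT mouse. MPP3 exceeded MPP4 in all 8 mice, by 2.93 ± 0.19 on the log2 scale in WT (7.61-fold) and by 1.04 ± 0.17 in KO (2.06-fold). The interaction was -1.89 ± 0.25 (95% confidence interval -2.43 to -1.35, edgeR FDR 0.023).

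As for Mt1, the Tek differences overlapped on the linear scale. They were 26.0, 27.8, 16.6 and 15.0 CPM in the WT mice and 10.4, 6.91, 19.1 and 18.1 CPM in the KO mice (exact permutation p = 0.171). Tie1, the related receptor, chosen after its values were seen, was 2.91-fold higher in MPP3 of WT and 3.02-fold higher in MPP3 of KO, with an interaction of 0.06 ± 0.22, or -0.13 without WT mouse 3 and -0.06 without WT mouse 4, and its CPM difference was lower in KO by a mean of -11.5. The Tek call was the less stable of both, while its value lay between -2.07 and -1.515 over all alternatives. Its FDR rose to 0.239 with limma-voom, to 0.119 with a looser count filter, to between 0.114 and 0.116 without KO mouse 2, WT mouse 3 or WT mouse 4, and to 1 with an age by population term, where the value was -1.515. Without the pairing no gene was called, and 270 genes had an unadjusted p under 0.05. Gene counts do not separate transcripts of a native locus from those of a transgene that carries parts of the same gene, and the part of this in either result was not tested.

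**Figure D2:**
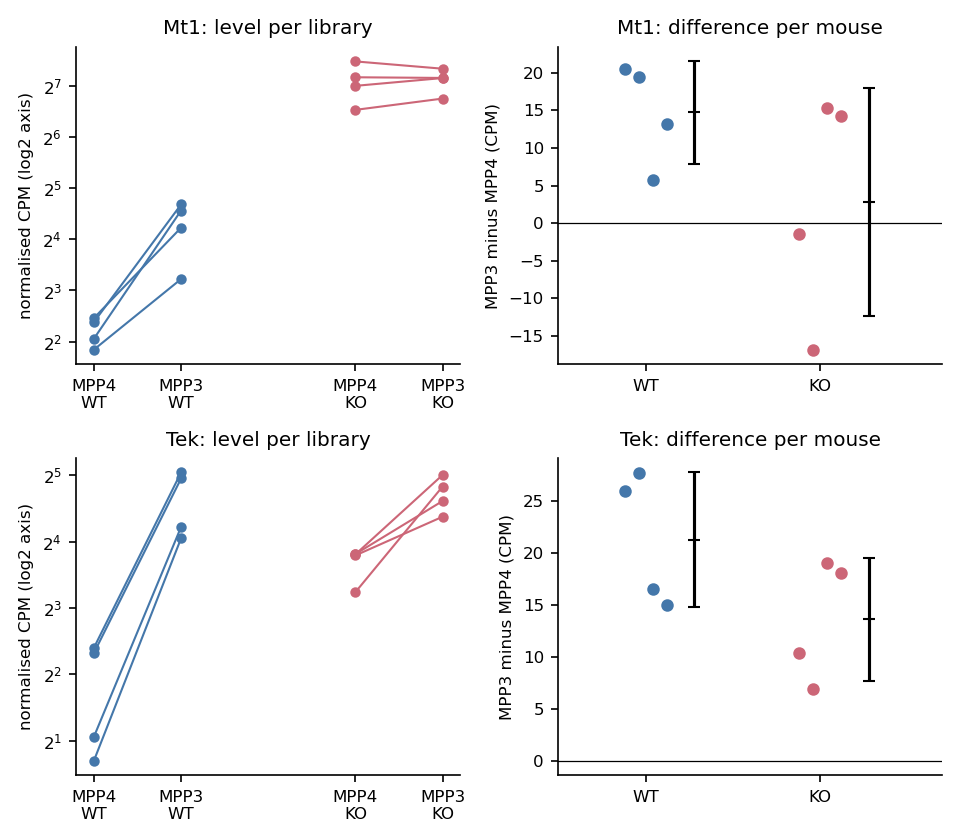
Mt1 (top) and Tek (bottom), with the level of each library in normalised CPM on a log2 axis at left, lines joining the 2 libraries of a mouse, and the MPP3 minus MPP4 difference of each mouse in CPM at right, bars giving mean ± SD. The lines of Mt1 rise in all 4 WT mice and are nearly flat in KO, those of Tek rise in all 8 mice but less in KO, and the CPM differences of the genotypes overlap for both genes.

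Since these 2 genes carry the calls, the 250 bases upstream of their RefSeq start sites (GRCm38.p6, plus strand) are shown, Mt1 at chr8:94178839-94179088 and Tek at chr4:94739039-94739288. Capitals mark the core of the metal response element, searched as TGCACNC or TGCGCNC on both strands.
Mt1: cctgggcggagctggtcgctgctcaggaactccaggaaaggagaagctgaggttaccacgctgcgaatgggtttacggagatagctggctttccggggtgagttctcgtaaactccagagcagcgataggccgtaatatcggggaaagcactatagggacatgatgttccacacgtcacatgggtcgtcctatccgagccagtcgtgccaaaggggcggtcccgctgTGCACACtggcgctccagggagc
Tek: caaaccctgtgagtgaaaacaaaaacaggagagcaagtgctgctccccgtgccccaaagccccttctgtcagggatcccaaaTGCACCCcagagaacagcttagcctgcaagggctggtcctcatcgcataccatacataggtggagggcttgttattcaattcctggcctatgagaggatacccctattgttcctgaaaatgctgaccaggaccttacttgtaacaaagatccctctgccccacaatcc
Each window held 1 match, which begins 23 bases upstream of the start in Mt1 and 168 bases upstream in Tek. Of 27025 RefSeq promoter windows of the same length, 5749 (21.3%) held at least 1 match, so a match is common. The EBF palindrome, found in 213 windows (0.788%), was in neither.

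Beyond the called genes, the 6 genes in each direction with the smallest p among uncalled genes whose mice did not overlap are described. They were chosen by these values, which are therefore a description. With all mice, DESeq2 called 26 of the 11831 tested genes, among them 10 of these 12 (all but mt-Rnr2 and Lss). Its adjusted p was 0.000536 for Abcd2, 0.000826 for Idh1, 1.95e-06 for Arpp21 and 0.000536 for mt-Nd1. The 12 were picked by p in the same counts, so these calls are not independent support, and limma-voom called 0 genes. Of the 6 with KO above WT, 3 widened toward MPP3 and 3 turned from MPP4 to MPP3. Idh1 (ENSMUSG00000025950, chromosome 1, 65158616 to 65186500), the cytosolic isocitrate dehydrogenase, had per-mouse log2 differences of 0.74, 0.68, 0.44 and 0.56 in WT and 1.08, 1.22, 1.18 and 1.31 in KO (interaction 0.59 ± 0.11, edgeR FDR 0.185). Ccr2, the chemokine receptor that takes monocytes out of the marrow, went from 0.83, 0.71, 0.51 and 0.73 to 1.56, 2.03, 1.23 and 1.48 (edgeR FDR 0.683). In both genes every mouse had more transcript in MPP3 than in MPP4. I830127L07Rik, a gene of low level with at most 14.7 CPM, had a 5.27-fold excess in MPP3 of WT and a 31.1-fold excess in KO (edgeR FDR 0.289).

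The genes that crossed upward were Abcd2, Il1rl2 and Wdr41. Abcd2 (ENSMUSG00000055782, chromosome 15, 91145871 to 91191799), a peroxisomal transporter of very long chain fatty acids, was at 12.5, 7.41, 9.03 and 10.2 CPM in MPP3 and 13.9, 12.2, 19.9 and 17.8 CPM in MPP4 of WT. In KO it was at 20.7, 25.1, 24.3 and 20.7 CPM in MPP3 and 12.7, 19.0, 16.4 and 15.6 CPM in MPP4. MPP4 was the higher population in 4 of 4 WT mice and MPP3 in 4 of 4 KO mice, and the population difference was called in each genotype with opposite signs (edgeR FDR 0.00512 in WT and 0.0237 in KO). Its interaction of 1.22 ± 0.21 missed the threshold with all mice (edgeR FDR 0.185) and passed without WT mouse 1 (FDR 0.0292). Il1rl2, the interleukin-36 receptor, had log2 differences between -0.38 and -0.11 in WT and between 0.54 and 0.66 in KO (edgeR FDR 0.351). Wdr41, a subunit of the C9orf72 complex, turned from -0.12 ± 0.09 to 0.41 ± 0.09 (edgeR FDR 0.683). Both overlap other annotated genes.

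In the other direction, 2 genes widened toward MPP4. Arpp21 (ENSMUSG00000032503, chromosome 9, 112065091 to 112235938), which encodes a cAMP-regulated phosphoprotein and hosts miR-128-2, was at 2.5, 6.15, 4.98 and 2.93 CPM in MPP3 and 37.1, 38.9, 41.0 and 40.6 CPM in MPP4 of WT. In KO it was at 0.864, 1.29, 1.22 and 2.26 CPM in MPP3 and 57.9, 41.9, 48.8 and 55.8 CPM in MPP4. MPP3 levels of KO lay below and MPP4 levels above those of every WT mouse, and the MPP4 excess went from 10.0-fold to 37.0-fold (interaction -1.89 ± 0.32, edgeR FDR 0.185, or 0.0966 without WT mouse 1). Genes on the opposite strand overlap it, so its count is uncertain.

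Socs2 (ENSMUSG00000020027, chromosome 10, 95385362 to 95417180), an inhibitor of cytokine signalling through STAT5, had MPP4 levels of 11.6, 15.8, 1.24 and 2.92 CPM in WT and 45.0, 40.6, 25.8 and 34.9 CPM in KO. Its MPP3 levels lay between 1.51 and 4.97 CPM in all 8 mice. The widening of Socs2 toward MPP4 therefore lay in the MPP4 libraries, from -0.73 ± 0.42 to -3.53 ± 0.41 on the log2 scale (edgeR FDR 0.362). In WT the females had the higher MPP4 levels and in KO the males did. The interaction was called with a sex by population term (-2.90, FDR 0.0471) and by DESeq2 without one (FDR 0.0711).

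The remaining 4 genes with KO below WT lost or turned a small MPP3 excess. Lss, lanosterol synthase of the cholesterol pathway, went from 0.82 ± 0.14 in WT to 0.02 ± 0.14 in KO (edgeR FDR 0.683). Rpsa-ps10, a ribosomal protein pseudogene whose reads may be shared with its parent gene, went from 0.37 ± 0.10 to -0.20 ± 0.10. The other two, mt-Nd1 and mt-Rnr2, are encoded by the mitochondrial genome.

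**Figure D3:**
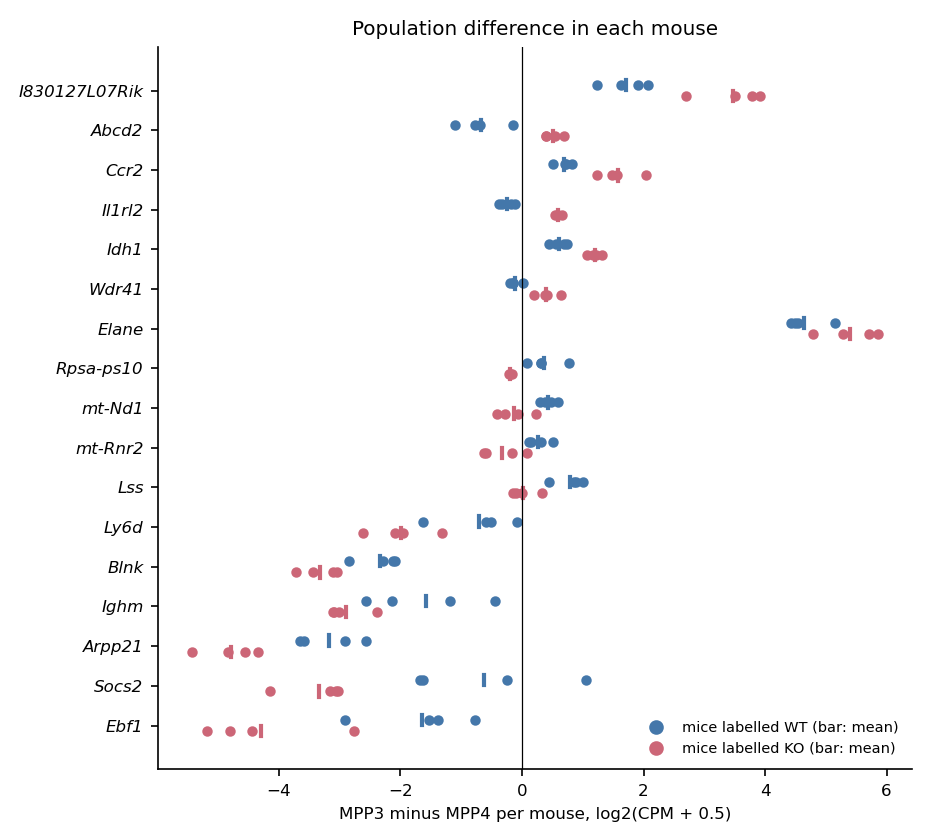
MPP3 minus MPP4 difference of each mouse on the log2(CPM + 0.5) scale for the 12 uncalled genes described above and for Elane, Ebf1 and 3 other B lineage genes, points standing for mice and bars for the mean of 4. Points of both genotypes separate fully for the 12 genes and for Blnk, and overlap for Elane, Ly6d, Ighm and Ebf1.

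The mitochondrially encoded genes were taken as a group after these values were seen, and the group was not tested. All 12 tested of 37 mitochondrially encoded genes had an interaction below 0, where 51.6% of all tested genes were above 0. Of the 12, 10 had an unadjusted p under 0.05 (2.6% of all tested genes did with a value below 0), but none was called. The 12 include mt-Nd1 and mt-Rnr2, which were picked by their p. Members can vary together within a library, so their number is not a number of independent observations. mt-Nd1, a subunit of respiratory complex I, was at 535, 679, 672 and 627 CPM in MPP3 and 412, 452, 547 and 449 CPM in MPP4 of WT. In KO it was at 504, 517, 515 and 505 CPM in MPP3 and 674, 540, 628 and 431 CPM in MPP4. MPP3 was the higher population in 4 of 4 WT mice, and MPP4 was in 3 of 4 KO mice (interaction -0.57 ± 0.12, edgeR FDR 0.362, or 0.0412 without KO mouse 4).

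mt-Rnr2, the large ribosomal RNA, had an interaction of -0.60 ± 0.14 (edgeR FDR 0.683), and mt-Co1, a subunit of cytochrome c oxidase that was chosen after its values were seen, one of -0.72 ± 0.20 (edgeR FDR 0.69). The median over the 12 genes was 0.25, 0.54, 0.14 and 0.27 in the WT mice and -0.42, -0.09, -0.46 and 0.14 in the KO mice, so the genotypes did not overlap, although KO mouse 4 and WT mouse 3 were nearly equal. The mitochondrial share of a library was 0.310% to 0.574%. The total count ratio of MPP3 to MPP4 was above 1 in KO mice 1, 3 and 4 and below 1 in KO mouse 2 and all WT mice, and the part of depth in this result was not tested.

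B lineage genes were the list with the largest median shift among those fixed for this contrast. Of 15 genes, 9 were tested and 8 of them had an interaction below 0 (a wider gap toward MPP4 for those already higher there). None was called by edgeR, and 4 had an unadjusted p under 0.05, all of them below 0, where 2.6% of all tested genes met both. The median difference was -0.73 in WT and -2.10 in KO, and the median interaction was -1.03, against 0.01 for all tested genes. The list holds the targeted gene, and without Ebf1 and Ighm its summed level ran from 229 to 279 CPM in MPP3 of WT, 214 to 263 in MPP3 of KO, 239 to 306 in MPP4 of WT and 264 to 312 in MPP4 of KO. The paired differences of that sum were -20.75, -10.3, -26.8 and -30.55 CPM in WT and -28.4, -64.45, -51.2 and -50.1 CPM in KO, where 3 of the 4 KO mice lay below every WT mouse. With an age by population term the median interaction was -0.53 and 1 of the 9 had an unadjusted p under 0.05. Per mouse the median was -0.22, -1.19, -0.52 and -1.23 in WT and -1.48, -2.13, -1.95 and -1.31 in KO, without overlap.

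The 4 genes were Blnk, Ly6d, Ighm and Ebf1. Blnk, the adaptor that links the pre-B cell receptor to its kinases, was at 2.77, 3.63, 2.19 and 3.19 CPM in MPP3 and 13.7, 17.0, 18.9 and 17.6 CPM in MPP4 of WT. In KO it was at 3.48, 3.19, 2.23 and 1.56 CPM in MPP3 and 33.6, 29.9, 29.0 and 26.4 CPM in MPP4. The MPP3 ranges overlapped, all KO libraries of MPP4 lay above WT, and the excess in MPP4 went from 5.75-fold to 11.8-fold (interaction -1.03 ± 0.26, edgeR FDR 0.683). Ly6d, a surface marker of B-biased lymphoid progenitors, went from -0.73 ± 0.25 to -2.10 ± 0.25 (edgeR FDR 0.683, DESeq2 FDR 0.0611).

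Ebf1 itself had the same pattern. Its MPP3 levels were 0.15, 0.828, 2.19 and 2.07 CPM in WT and 0.602, 0.199, 2.23 and 0.151 CPM in KO, which overlap, beside the MPP4 levels given above. The difference was -2.0 ± 0.58 in WT and -5.17 ± 0.64 in KO (interaction -3.17 ± 0.86, edgeR FDR 0.69). In CPM the WT mice ranged from -4.26 to -1.92 and the KO mice from -24.6 to -15.8, without overlap (exact permutation p = 0.0286, the smallest possible, where 3.87% of all tested genes did not overlap in CPM). An opposite-strand gene overlaps Ebf1, and whether reads were assigned by strand is not given in the sources used here.

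Ighm is the mu heavy chain constant region. Its MPP3 levels were 799, 475, 266 and 195 CPM in WT and 130, 131, 247 and 154 CPM in KO, while all 8 MPP4 libraries lay between 1083 and 1292 CPM (interaction -1.31 ± 0.35, edgeR FDR 0.69). Jchain, the joining chain of secreted antibodies, was at 133, 76.0, 36.5 and 34.5 CPM in MPP3 of WT and at 0, 0.266, 20.6 and 0.0754 CPM in MPP3 of KO. It was at most 7.24 CPM in MPP4, and its interaction was -5.93 ± 1.63 (edgeR FDR 0.69, DESeq2 FDR 0.000536), or -9.36 without KO mouse 3 (edgeR FDR 0.0434). Igkc, the kappa light chain (chosen after its values were seen), was at 381, 361, 82.9 and 67.6 CPM in MPP3 of WT, at 61.2 CPM in MPP3 of KO mouse 3 and at 0 counts in MPP3 of the other 3 KO mice. The sign of its interaction depended on the method. It was above 0 in the main fit, -4.03 with DESeq2, -3.82 with limma-voom and -202.2 on the CPM scale.

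Of the 19 genes of the plasma cell list 11 were tested. The list summed to between 437 and 1011 CPM in MPP3 of WT and between 352 and 652 CPM in MPP3 of KO, and without immunoglobulin genes to between 351 and 512 and between 352 and 548 CPM. In MPP4 the sums ran from 381 to 547 CPM for WT and from 328 to 604 CPM for KO. The paired MPP3 minus MPP4 differences of the sum over the whole list ran from 54.3 to 464 CPM in WT and from 23.4 to 48.3 CPM in KO. Without immunoglobulin genes they overlapped, at 45.2, -16.9, -25.7 and 4.21 CPM in WT and 26.4, 31.8, -54.4 and 24.8 CPM in KO. Of the 11 tested members 6 had an interaction above 0 and 5 below, none was called, and 4 had an unadjusted p under 0.05, 1 above 0 and 3 below (3.28% and 2.6% of all tested genes). The median log2 difference was 0.93 in WT and 0.03 in KO, while the median interaction was 0.14, of the opposite sign to that change. Xbp1, the secretory transcription factor and the member with the highest level, had an interaction of 0.15 ± 0.07 (edgeR FDR 0.846), with per-mouse differences between -0.05 and 0.19 in WT and between 0.22 and 0.32 in KO, which do not overlap. Mzb1, a chaperone of antibody-secreting cells, averaged 2.15 CPM in MPP3 of WT and 0.295 CPM in MPP3 of KO (interaction -2.62 ± 1.01, unadjusted p = 0.0221, edgeR FDR 0.81). The part of such cells in the Ighm result was not tested. In bulk samples fewer cells of a type and less RNA per cell cannot be told apart.

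The lymphoid priming list, which precedes B commitment, had close medians in both genotypes. Of 18 tested genes 16 were called higher in MPP4 on average over the genotypes (2392 of all 11831 were), none was called for the interaction, none had an unadjusted p under 0.05, and the medians were -1.05 in WT and -1.08 in KO. Dntt, terminal deoxynucleotidyl transferase of antigen receptor joining, was 27.7-fold higher in MPP4 of WT and 33.3-fold higher in MPP4 of KO (interaction -0.26 ± 0.16, edgeR FDR 0.897). In CPM the Dntt gap was wider in every KO mouse, with means of -1212 ± 107 in WT and -1590 ± 208 in KO (SD, n = 4, exact permutation p = 0.0286, the smallest possible, where 3.87% of all tested genes did not overlap in CPM). Ccr9, a homing receptor of thymus-seeding cells, was 20.7-fold higher in MPP4 of WT and 10.6-fold higher in KO (edgeR FDR 0.898), and it overlaps 6 other genes. Its CPM gap went the other way from that of Dntt and was narrower in every KO mouse, with means of -13.2 ± 1.06 in WT and -8.83 ± 1.38 in KO (SD, n = 4, exact permutation p = 0.0286, the smallest possible).

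All 25 myeloid progenitor genes were tested, 22 had an interaction above 0 against 51.6% of all tested genes, none was called, and 3 had an unadjusted p under 0.05, all above 0, where 3.28% of all tested genes did. With limma-voom or without the pairing, 0 of the 25 had one. The median difference was 0.38 in WT and 0.47 in KO, the median interaction was 0.12, and the per-mouse medians overlapped, between 0.32 and 0.64 in WT and between 0.51 and 0.85 in KO. The median and the number with an unadjusted p under 0.05 and a value above 0 moved both ways, to 0.21 and 7 without KO mouse 1, to 0.26 and 7 with an age by population term, to 0.09 and 1 without KO mouse 4, and to 0.05 and 2 without WT mouse 3, where 15 of the 25 were above 0. That number was 6 without WT mouse 1, 5 without KO mouse 2 and 2 without WT mouse 2.

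Elane, neutrophil elastase, carried the smallest p of the list. It was at 976, 809, 433 and 979 CPM in MPP3 and 41.7, 37.4, 11.8 and 43.3 CPM in MPP4 of WT, and at 496, 1394, 1741 and 2084 CPM in MPP3 and 12.3, 50.2, 29.6 and 39.4 CPM in MPP4 of KO. KO mouse 1 was low in both populations, and the excess in MPP3 went from 25.2-fold to 43.1-fold (interaction 0.77 ± 0.21, edgeR FDR 0.69). With an age by population term Elane was called (1.35, FDR 0.0145). Ly6c2, a surface protein of monocyte and granulocyte progenitors, widened from 10.5-fold to 17.5-fold (edgeR FDR 0.779), and Mpo, myeloperoxidase, from 3.21-fold to 3.74-fold (edgeR FDR 0.907).

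Of 21 tested interferon response genes 20 had an interaction above 0, against 51.6% of all tested genes, none was called, and 3 had an unadjusted p under 0.05 above 0, against 3.28% of all. The median difference was -0.24 in WT, higher in MPP4, and -0.02 in KO. Per mouse the medians were -0.27, -0.20, -0.20 and -0.30 in WT and 0.05, 0.10, -0.17 and -0.14 in KO, without overlap, although KO replicates 3 and 4 lay close to WT. The 3 with an unadjusted p under 0.05 became 1 without KO mouse 2, without WT mouse 2 or with limma-voom, 0 with an age by population term or without the pairing, 5 without WT mouse 3 or with all genes of at least 1 count, and 7 without KO mouse 3. Members of this list rise and fall together within a sample, so their number is not a number of independent observations. The same limit applies to the member counts of the other lists. Rtp4, an interferon-induced transporter chaperone, went from -0.44 ± 0.07 to -0.08 ± 0.07 (edgeR FDR 0.705), and Ddx58, the RNA sensor RIG-I, from -0.14 ± 0.10 to 0.20 ± 0.10 (edgeR FDR 0.816).

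**Figure D4:**
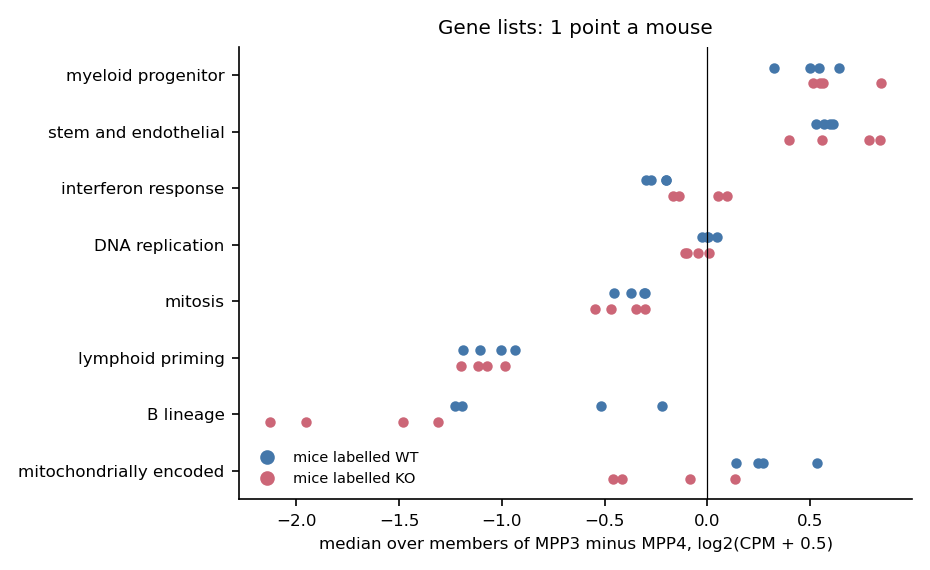
Median over the tested members of a gene list of the MPP3 minus MPP4 difference on the log2(CPM + 0.5) scale, 1 point for each mouse. The points of both genotypes separate for the interferon response and B lineage lists and, by a margin of under 0.01, for the mitochondrially encoded genes, which were chosen after their values were seen, and overlap for the other lists.

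For DNA replication, 24 of 25 genes had an interaction below 0 and 1 above, where 51.6% of all tested genes were above 0. The median was -0.06, none was called and 2 had an unadjusted p under 0.05, both below 0 (2.6% of all tested genes). The split was 6 above and 19 below with all genes of at least 1 count, with an age by population term or without KO mouse 1, and the 2 became 0 without the pairing and 4 without KO mouse 3. Under 9 of the 19 alternatives 1 had such a p. Mcm7, a subunit of the replicative helicase, went from 0.03 ± 0.04 to -0.15 ± 0.04 (edgeR FDR 0.72), and Gins2 of the same helicase complex from -0.12 ± 0.07 to -0.34 ± 0.07 (edgeR FDR 0.836). For mitosis, all 25 genes were called higher in MPP4 on average, as were 2392 of all 11831, and 7 had an interaction above 0. The spindle checkpoint kinase Bub1 narrowed from -0.45 ± 0.08 to -0.13 ± 0.08 while Cdc20, activator of the anaphase-promoting complex, widened from -0.20 ± 0.05 to -0.41 ± 0.05 (edgeR FDR 0.766 and 0.773).

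The stem and endothelial list holds Tek. Of 16 tested genes 14 had an interaction above 0, where 51.6% of all tested genes did, Tek was the only one called, and the median was 0.15. With an age by population term that median was -0.04, and without KO mouse 1 it was 0.01 with 8 of 16 genes above 0. Pecam1 (CD31) went from -0.19 ± 0.06 to 0.07 ± 0.06 (edgeR FDR 0.768). The genotypes also overlapped for the erythroid and megakaryocyte list (8 of 14 tested genes above 0) and the mature neutrophil list (1 of 5 above 0). Klf1, the erythroid factor, went from 0.95 ± 0.32 to 2.20 ± 0.34 (edgeR FDR 0.783).

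Mast cell and basophil genes were higher in MPP3 in both genotypes, with 13 of 13 tested genes called on average (2238 of all 11831 were called higher in MPP3) and none for the interaction. Cpa3, the mast cell carboxypeptidase, was 41.6-fold higher in MPP3 of WT and 31.6-fold higher in KO (interaction -0.40 ± 0.26, edgeR FDR 0.907). The basophil protease genes Mcpt8 and Prss34 had interactions of 0.43 ± 0.16 and 1.71 ± 0.65 (edgeR FDR 0.776 and 0.806). The list summed to between 513 and 647 CPM in MPP3 of WT and between 463 and 871 CPM in MPP3 of KO, and to at most 177 CPM in MPP4.

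Immediate early genes had 13 of 17 tested members above 0 (51.6% of all tested genes), of which 4 had an unadjusted p under 0.05 (3.28% of all). Jun went from 0.06 ± 0.06 to 0.32 ± 0.06 and the phosphatase gene Dusp1 from 0.16 ± 0.10 to 0.49 ± 0.10 (edgeR FDR 0.769 and 0.816). Of the monocyte and dendritic list 5 of 15 tested genes were above 0. Of the gp130 receptor family 6 of 9 were, among them the kinase Jak1 at 0.14 ± 0.06, while Il6st, gp130 itself, was at -0.45 ± 0.15 (edgeR FDR 0.816 and 0.766). Emb, embigin, chosen after its values were seen, narrowed from a 1.97-fold to a 1.64-fold excess in MPP4 (interaction 0.26 ± 0.07, edgeR FDR 0.683).

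Of the 5 genes tested from the sort gate list, none was called for the interaction. That list includes Cd34, which is not part of the gate given above. Flt3 had per-mouse differences of -2.14, -2.18, -2.12 and -2.08 in WT and -1.83, -1.80, -2.26 and -2.27 in KO, with the WT values inside the KO range (interaction 0.09 ± 0.10, 95% confidence interval -0.13 to 0.31, edgeR FDR 0.939). Its CPM gap was narrower in every KO mouse, with means of -948 ± 68.5 in WT and -762 ± 83.3 in KO (SD, n = 4, exact permutation p = 0.0286, the smallest possible, where 3.87% of all tested genes did not overlap in CPM). Cd34 and Ly6a (Sca1) had interactions of 0.04 ± 0.05 and 0.03 ± 0.13. Cd48 narrowed from 0.41 ± 0.05 to 0.22 ± 0.05 and Kit widened from 0.51 ± 0.06 to 0.71 ± 0.06 (edgeR FDR 0.773 and 0.816). Of the markers of the depleted lineages, 2 of 7 were tested, both above 0 and neither with an unadjusted p under 0.05. The tested 2 were Ptprc, which encodes the CD45 of all blood cells as well as B220 and so does not mark the depleted B cells at gene level, and Itgam (CD11b), at a mean of 7.37 CPM over the libraries. The other 5 had means of at most 1.65 CPM.

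Several genes with the largest averaged difference had no counts in a whole group, so their fitted fold depends on the method, and counts with ratios of mean CPM are given in its place. Lifr, a cytokine receptor of the gp130 family, had 0 counts in all 4 MPP3 libraries of WT and 38, 7, 19 and 8 in MPP3 of KO, against 138, 141, 122 and 210 in MPP4 of WT and 216, 199, 129 and 230 in MPP4 of KO. With each library at 0 set to 3 counts, the most that a 0 allows, MPP4 exceeded MPP3 by at least 43.4-fold in WT, and by 11.7-fold in KO, so the ratio narrowed (edgeR FDR 0.493, DESeq2 FDR 0.00387). The CPM gap moved the other way, from -3.87 ± 1.18 to -5.18 ± 0.75 (SD, n = 4, exact permutation p = 0.143).

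Ctnnd2 and Camkv, genes better known from neurons, had no counts in MPP3 of KO. Ctnnd2 had 12, 4, 0 and 21 counts in MPP3 of WT and between 97 and 323 counts in every MPP4 library. The MPP4 excess was 20.2-fold in WT and at least 64.9-fold in KO. Camkv had 24, 0, 23 and 0 counts in MPP3 of WT, and its excess was 11.5-fold in WT and at least 88.3-fold in KO (edgeR FDR 0.72 and 0.69). The heavy chain variable segment Ighv1-76 had 4, 6, 0 and 0 counts in MPP3 of WT and at least 101 in every MPP4 library. Gzmb (granzyme B) and Cma1 (mast cell chymase) had no counts in any MPP4 library and between 30 and 325 in every MPP3 library, and Tpsb2, a mast cell tryptase, had 10 counts in MPP4 of KO mouse 4 and none in the others. Igkv19-93 came from single libraries, with 416 counts in MPP3 of WT mouse 1, 101 in MPP3 of KO mouse 3 and at most 1 elsewhere.

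The study also listed genes near regions whose chromatin accessibility differed by genotype, and the interaction was read for those lists. The study chose these lists in the same mouse line, so they are not independent evidence of a direction. Of 34 genes near regions gained in MPP3 of KO, 16 were tested, and 2 were called, Mt1 and Tek, beside 0.0169% of all tested genes. The same 2 genes were the only called members of the 105 tested near regions gained in MPP4 of KO. Tie2Cre uses the promoter of Tek, and the part of transgene reads in the counts or accessibility of these 2 genes was not tested. edgeR called no gene among the 159 tested near regions reduced in MPP3 or the 44 near regions reduced in MPP4. The median interaction of the 4 lists lay between -0.03 and 0.00, with 7 of 16 and 44 of 105 members above 0 for the gained regions of MPP3 and MPP4, and 79 of 159 and 21 of 44 for the reduced ones. Ccl3, a chemokine gene of the last list, narrowed from a 3.87-fold to a 2.5-fold excess in MPP4 (interaction 0.63 ± 0.16, edgeR FDR 0.683, DESeq2 FDR 0.068).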

How the data were processed

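The authors aligned paired-end reads of 100 bases to mm10 with STAR 2.7.3a and counted reads per gene with featureCounts 2.0.0, per the labels' processing notes. The raw counts as deposited were the input here, and the authors' table of counts divided by DESeq2 1.28.1 size factors was not used. Annotation release and strand setting are not given in the sources used here. Symbols and coordinates came from GENCODE (GRCm38).

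Genes whose mean count passed 100 in at least 1 of the 4 groups were fitted in edgeR 4.0.16 (R 4.3.3, TMM, quasi-likelihood F-test with legacy deviances) with 1 term for each mouse, the population effect and its interaction with genotype. P-values were adjusted by Benjamini-Hochberg. Same-mouse libraries deviated together from their group means (r between 0.269 and 0.548), each MPP3 library correlating best with its own mouse's MPP4 library, and the labels give paired libraries the same sex and age. No replicates were alike within sampling noise (chi-square per gene at least 25.6). Values per mouse used log2(CPM + 0.5). A count of 0 allows 3 counts, between 0.0619 and 0.118 CPM, counting error only.

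Named genes were Ebf1, called genes, the 6 smallest p in each direction among uncalled genes without overlap, the 4 largest averaged differences in each direction, the 2 smallest p and the highest CPM in each list, and the gate genes. The text gives a selection of these and says where a gene was chosen after its values were seen. The members and lists were chosen with earlier results of these data known. Alternatives were other normalisations, filters, pseudocounts and terms, limma 3.58.1, DESeq2 1.42.0 and leaving out each mouse. Tests were tried on simulated counts.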

Additional observations from a re-analysis of the deposited data

Results flagged for a closer look

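The 2 called genes differed between the genotypes by the test of the difference itself, Mt1 with an interaction of -1.93 and Tek with one of -1.89 (edgeR, paired within mouse). Both values are given above with their libraries.

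In 9 of 122 groups of 4 mice, 1 mouse lay far from the other 3 in its MPP3 minus MPP4 difference on the log2(CPM + 0.5) scale, where chance marks about 1 in 20 groups. KO mouse 3 was the highest of the KO mice for Ighm (-2.39), Jchain (3.68), Igkc (6.42) and Igkv19-93 (2.67). WT mouse 1 was the highest WT mouse for Igkv19-93 (4.70) and the lowest for Ighv1-76 (-3.29). WT mouse 3 was the highest WT mouse for Elane (5.14) and for Ly6a (-0.52). KO mouse 4 was the lowest KO mouse for Socs2 (-4.14).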

How the results depend on the processing

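The main fit called 2 genes. In total DESeq2 called 26, edgeR with the looser count filter 1, limma-voom 0 and the fit without the pairing (no replicate block) 0. Leaving out 1 mouse gave totals between 1 and 4. Mt1 was called under 17 of 19 alternatives and Tek under 12 of 19. Genes with an unadjusted p under 0.05 numbered 386 with an age by population term and 270 without the block, where the calls between populations were 1790 in WT and 2116 in KO. The slope difference was 0.0483 with immunoglobulin genes left out and between 0.000862 and 0.0495 with 1 mouse left out. The difference in spread turned positive with a pseudocount of 2 (0.00108) and without immunoglobulin genes (0.0168), and lay between -0.00501 and 0.00449 with 1 mouse left out. Among genes called in KO 916 narrowed, and among those called in WT 1166 widened. The causes were not tested.

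Single values that turned sign were, with an age by population term, Igkv19-93 (4.97), Cd34 (-0.033), Flt3 (-0.14), Ly6a (-0.12) and the medians of the mitosis (0.046) and stem and endothelial (-0.043) lists, and on the CPM scale Ighv1-76 (0.688), Lifr (-1.31), Tpsb2 (1.12), Cpa3 (9.33), Ly6a (-5.90), Igkc (-202.2) and Tie1 (-11.5). Igkc was at -4.03 with DESeq2 and -3.82 with limma-voom. With 1 mouse left out, Igkv19-93 lay between -9.78 and 5.35, Tpsb2 between -3.79 and 0.031, Ly6a between -0.042 and 0.12, Igkc between -5.61 and 3.07, and Tie1 between -0.13 and 0.26. The alternatives for list medians and counts were chosen after seeing the data. Of 1331 such alternatives for 67 genes and lists, 1266 kept their direction and side of the threshold. Genes other than Mt1 and Tek were uncalled in the main fit, so keeping that side says little about their stability. With 4 mice a genotype the median 95% interval reached 0.34 on the log2 scale to either side.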
